A study of Mus musculus with 12 samples.

Results

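Messenger RNA of 6 enzymes that build O-fucose and O-mannose glycans was followed in mouse dendritic cells by quantitative real-time PCR. The enzymes were chosen by symbol from a glycosylation panel of 84 genes. Pofut1, Pofut2 and B3glct make O-fucose glycans, and Pomt1, Pomt2 and Pomgnt1 make O-mannose glycans. Measured values played no part in the rule, although earlier results of these data were known when the enzymes were chosen. Each of the 6 symbols matched 1 well of the plate and 1 entry of the RefSeq gene table.

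O-fucose and O-mannose are sugars that the cell attaches to serine or threonine of particular proteins, starting in the endoplasmic reticulum. POFUT1 puts O-fucose on epidermal growth factor-like repeats, best known from Notch receptors, and the Fringe enzymes extend that fucose and so tune which ligand a Notch receptor answers. POFUT2 puts O-fucose on thrombospondin type 1 repeats, and B3GLCT then adds a glucose to that fucose. POMT1 and POMT2 form a complex that attaches O-mannose to proteins such as alpha-dystroglycan, a laminin receptor, and POMGNT1 adds N-acetylglucosamine to the mannose in the Golgi. In mouse spleen, Notch2 signalling is known to shape the makeup of the dendritic cell compartment.

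The samples fell into 4 groups. The immortalized mouse dendritic line DC2.4 was grown without a stimulus or with TGF-beta for 4 days, at a dose that one label gives as 2.5 and another as 10 ng/ml. Type 1 dendritic cells (DC1), which specialise in presenting captured antigen to killer T cells, came from spleen, where the label names XCR-1, or from MCA101 fibrosarcomas injected under the skin, where it names CD103. Tissue and sort marker therefore cannot be told apart, and DC2.4 is a single line. The strain, age and sex of the mice and the number of animals behind a sample are not given in the labels. Each group had 3 deposited files, but the third was a constant times the mean of the other 2 at all 6 enzymes in all 4 groups, so n = 2 measured samples per group. Nothing in the labels says that the 2 came from separate cultures or animals, so a p-value here speaks only of the scatter among these samples, and that scatter may be technical. The panel held 0 of 20 listed lineage markers, so the cell labels could not be checked against them. In sorted cells and in the line alike, a shift in which cells were present and a change in RNA per cell cannot be told apart.

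Abundance was read as a threshold cycle (Ct), the amplification cycle at which fluorescence crosses a set line, and a lower Ct means more template. All 6 enzymes had a Ct under 35 in all 8 measured samples, against 64 to 76 of the 84 panel genes per sample. The enzymes' Ct values ran from 22.78 to 34.30, and the mean Ct of the 5 reference wells from 16.96 to 24.32. A relative level is given throughout as reference Ct, averaged over those 5 wells, minus gene Ct, a log2 scale on which a step of 1 is a doubling and values are negative because reference genes are more abundant. Primer efficiencies are not known, so levels are compared between samples for 1 gene and not between genes.

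In the mouse genome build GRCm38.p6, the 6 genes lie on 5 chromosomes. Pofut1 spans chr2:153241532-153271029 and Pomt1 spans chr2:32236590-32255005. Pofut2 spans chr10:77259081-77269586, B3glct chr5:149678100-149762599, Pomt2 chr12:87106861-87147968 and Pomgnt1 chr4:116150498-116159844. The stretch of each transcript that the assay amplified is not stated in the labels or files.

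Pomt2 and Pomgnt1 had the most similar profiles of any pair among the 6 enzymes, as described further on, and the stretch just before the annotated start of each gene is shown for that reason. Both come from RefSeq and run 5′ to 3′ in the direction of the gene. Capitals mark the GC box GGGCGG, a letter pattern bound by SP1-type factors, and the SMAD-binding letters CAGAC, bound by the transcription factors downstream of TGF-beta, on either strand.
Pomt2, chr12:87147969-87148152, minus strand: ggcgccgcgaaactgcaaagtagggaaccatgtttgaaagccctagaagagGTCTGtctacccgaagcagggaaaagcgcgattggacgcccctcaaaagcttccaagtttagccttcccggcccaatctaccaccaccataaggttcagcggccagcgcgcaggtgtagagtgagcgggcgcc
Pomgnt1, chr4:116150268-116150497, plus strand: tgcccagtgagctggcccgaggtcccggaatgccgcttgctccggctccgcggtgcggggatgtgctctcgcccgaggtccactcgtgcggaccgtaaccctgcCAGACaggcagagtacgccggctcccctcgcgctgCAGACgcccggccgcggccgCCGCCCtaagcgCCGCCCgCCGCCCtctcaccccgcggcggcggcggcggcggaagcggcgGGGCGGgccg
The Pomt2 stretch of 184 bases held 1 SMAD motif and 0 GC boxes. The Pomgnt1 stretch of 230 bases held 2 SMAD motifs and 4 GC boxes. Over the whole promoter window, from 250 bases before to 50 bases after the start, 4 of the 6 enzymes had at least 1 GC box (Pofut1 and Pomgnt1 5 each, Pofut2 and Pomt2 1 each), and 35.7% of 32851 mouse windows had one. The SMAD motif was found for 4 of the 6 enzymes (Pofut2 3, Pomgnt1 2, Pomt1 and Pomt2 1 each) and in 49.6% of all windows. These are matches of letters and are not evidence of binding. The 6 enzymes had 7 windows, so a count per enzyme and a share per window are not the same measure. The windows of the 6 enzymes were all richer in G and C than the median window, which had 52.7%, and Pomgnt1 had the most with 80.7%.

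The O-fucose enzymes are described first, sample by sample. Pofut1, which acts on epidermal growth factor-like repeats, stood at -5.99 and -7.29 in unstimulated DC2.4 cells, at -6.16 and -7.45 with TGF-beta, at -5.74 and -7.87 in splenic DC1, and at -7.63 and -6.67 in tumor DC1. All 4 groups overlapped, and the 2 splenic samples were the highest and the lowest of the 8. Its group means lay between -6.64 ± 0.92 (SD, n = 2, unstimulated) and -7.15 ± 0.68 (tumor), so they differed by less than the spread within groups.

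Pofut2, which acts on thrombospondin type 1 repeats, stood at -5.64 and -6.04 in unstimulated DC2.4 cells, at -5.11 and -5.81 with TGF-beta, at -4.78 and -4.93 in splenic DC1, and at -5.91 and -6.51 in tumor DC1. The 2 splenic samples were the highest of the 8 and close to each other. In order, the group means were -4.85 ± 0.10 (splenic), -5.46 ± 0.49 (TGF-beta), -5.84 ± 0.28 (unstimulated) and -6.21 ± 0.42 (tumor; SD, n = 2 each), and of neighbours in that order only splenic DC1 and TGF-beta DC2.4 did not overlap.

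B3glct, which adds glucose to the fucose placed by POFUT2, had the latest Ct of the 6. It stood at -9.83 and -10.24 in unstimulated DC2.4 cells, at -8.55 and -9.31 with TGF-beta, at -8.55 and -9.98 in splenic DC1, and at -9.32 and -10.02 in tumor DC1. The unstimulated cells had the lowest mean, -10.03 ± 0.29, and the TGF-beta-treated cells the highest, -8.93 ± 0.53 (SD, n = 2), and these groups did not overlap, while each neighbouring pair in the order of means overlapped.

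Among the O-mannose enzymes, Pomt1, a subunit of the O-mannosyltransferase, stood at -7.56 and -7.58 in unstimulated DC2.4 cells, at -7.51 and -7.74 with TGF-beta, at -7.33 and -8.89 in splenic DC1, and at -8.71 and -8.80 in tumor DC1. It was the steadiest of the 6 in the cell line, with a range of 0.23 over the 4 DC2.4 samples, against 1.56 over the 4 DC1 samples. The second splenic sample was the lowest of the 8. Group means stood in the order unstimulated (-7.57 ± 0.02), TGF-beta (-7.63 ± 0.16), splenic (-8.11 ± 1.10) and tumor (-8.76 ± 0.07; SD, n = 2), with overlap between all neighbours.

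Pomt2, the other subunit, stood at -6.90 and -8.07 in unstimulated DC2.4 cells, at -5.81 and -7.57 with TGF-beta, at -7.82 and -8.99 in splenic DC1, and at -7.62 and -9.21 in tumor DC1. It had the widest range of the 6 over the 8 samples, 3.40. Within each group replicate 1 was higher than replicate 2, which held for 5 of the 6 enzymes, for Pofut1 in 3 of 4 groups, and for 18 of the 59 panel genes detected in all samples. Group means ran from -6.69 ± 1.25 (TGF-beta) to -8.41 ± 1.12 (tumor; SD, n = 2), and each neighbouring pair overlapped.

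Pomgnt1, which elongates O-mannose, stood at -5.29 and -6.38 in unstimulated DC2.4 cells, at -4.64 and -6.24 with TGF-beta, at -5.71 and -7.11 in splenic DC1, and at -6.64 and -6.83 in tumor DC1. Its order of means, TGF-beta (-5.44 ± 1.14), unstimulated (-5.84 ± 0.77), splenic (-6.41 ± 0.99) and tumor (-6.73 ± 0.13; SD, n = 2), had overlap between all neighbours. Over the 6 enzymes the median gap between the 2 samples of a group was 0.75 in unstimulated cells, 1.02 with TGF-beta, 1.41 in splenic and 0.65 in tumor DC1, and over 59 panel genes detected in all 8 samples it was 0.47, 0.75, 1.3 and 0.33.

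**Figure D1:**
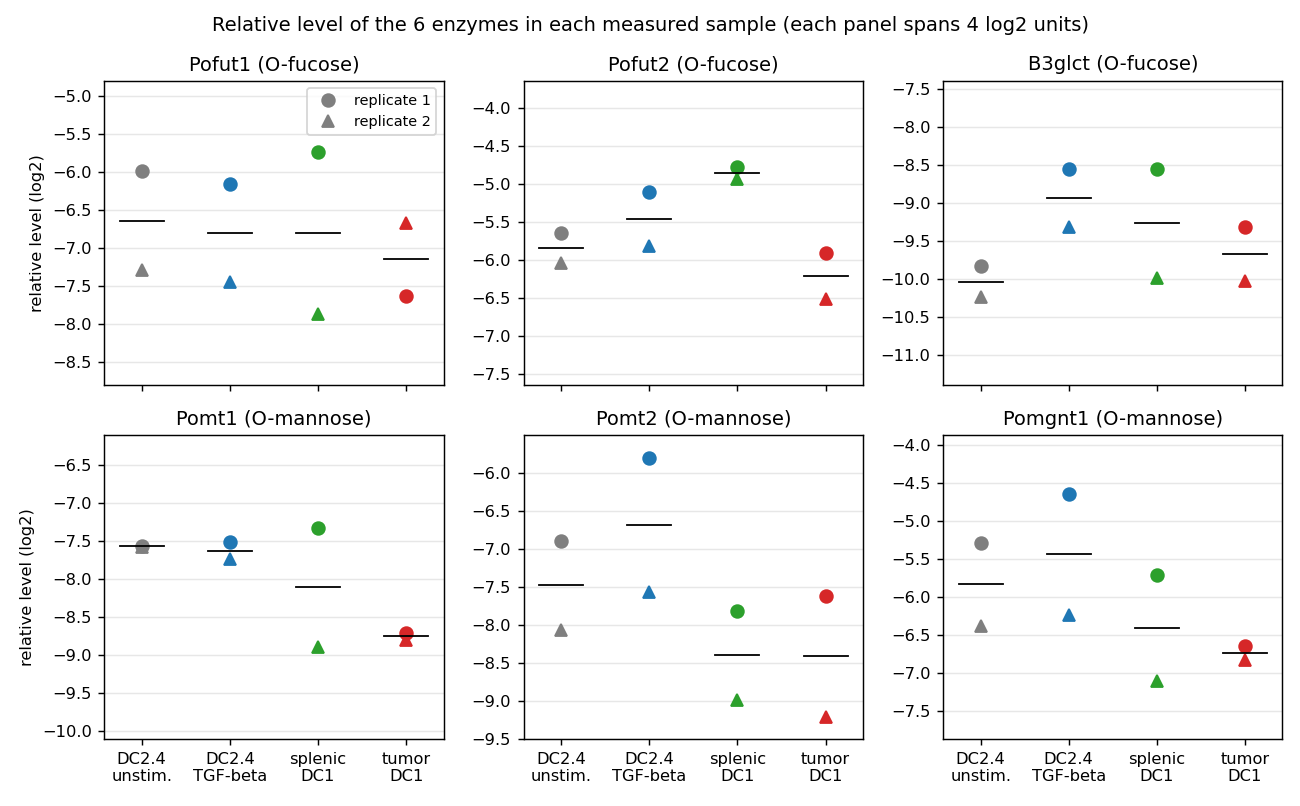
Relative level of each of the 6 enzymes (vertical axes, mean reference Ct minus gene Ct, log2 scale) in the 4 groups. Points are the 2 measured samples of a group and bars their mean. The groups overlap for Pofut1, the splenic samples of Pofut2 lie above all others at -4.78 and -4.93, and Pomt2 spreads over 3.40.

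The first comparison asked whether TGF-beta moved these enzymes in DC2.4 cells. By limma, with an adjusted p of 0.05 as the threshold, none of the 6 passed, and neither did any of the 69 genes tested (0.0%). Of the panel, 11 genes had an unadjusted p under 0.05, of which 0 were among the 6. B3glct had the largest difference of the 6 and was 1.10 ± 0.51 (SE, n = 2 per group) higher on the log2 scale with TGF-beta, 2.15-fold, with an adjusted p of 0.427 by limma. It was the only one of the 6 whose treated samples both lay above both untreated ones, which 29.0% of the panel genes did. Another 10.1% were apart in the lower direction, 39.1% in all. With 2 samples against 2, an exact permutation test cannot give a p under 0.333.

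The other O-fucose enzymes differed by -0.16 ± 0.78 (Pofut1) and 0.38 ± 0.49 (Pofut2) between treated and untreated cells. For the O-mannose enzymes the differences were 0.80 ± 0.87 (Pomt2), 0.40 ± 0.81 (Pomgnt1) and -0.06 ± 0.41 (Pomt1; SE, n = 2 per group). Their adjusted p-values by limma lay between 0.823 and 0.953. The median of the 6 was 0.39 and that of all 69 genes 0.29, with medians of 0.38 for the 3 O-fucose and 0.40 for the 3 O-mannose enzymes, so on this scale the enzymes sat where the panel sat.

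The sign of most of these differences turned when 1 sample was left out, which also leaves the replicate numbers unbalanced. In both DC2.4 groups mean reference Ct was later in replicate 1 (20.63 unstimulated, 22.07 with TGF-beta) than in replicate 2 (16.96 and 16.97). Within each replicate number, Pofut2, B3glct, Pomt2 and Pomgnt1 were higher with TGF-beta and Pofut1 was lower. Pomt1 was mixed. The labels do not pair the samples, so this was not tested. Pofut1 was 0.48 without unstimulated replicate 1 and also without TGF-beta replicate 2. Pomgnt1 was -0.41 and Pomt2 -0.09 without TGF-beta replicate 1, and Pomt1 was 0.06 without TGF-beta replicate 2. B3glct lay between 0.72 and 1.48 with each sample left out in turn, and Pofut2 between 0.03 and 0.73. B3glct was also higher with TGF-beta under all 11 other choices of reference (each well alone, each set of 4 wells, and the mean of all panel genes), from 0.30 against the mean of all panel genes to 1.61 against well H02 alone. Set against the mean of the other 5 enzymes in the same sample, which needs no reference well, B3glct was 0.83 ± 0.55 higher (adjusted p = 0.639 by limma).

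The second comparison asked whether DC1 from the tumor differed from splenic DC1. Directions follow the labels of the sample files, of which the table that the authors deposited is close to a mirror image. The 5 genes of 62 that passed the limma test (8.06%), all lower in tumor DC1, held none of the 6 enzymes, whose adjusted p-values lay between 0.279 and 0.994. All 6 had a negative difference, with a median of -0.37, and the median of all 62 genes was -0.39. Pofut2 had a log2 difference of -1.36 ± 0.63 (SE, n = 2 per group), 2.56-fold lower in tumor DC1, with an adjusted p of 0.279 by limma. Both of its tumor samples lay below both splenic samples, the only such case among the 6, and 41.9% of the panel genes were apart in that direction, 6.45% in the other and 48.4% in all.

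B3glct, which works on the same glycan as Pofut2, differed by -0.40 ± 0.74, and Pofut1 by -0.35 ± 0.87. The subunits Pomt1 and Pomt2 differed by -0.65 ± 0.74 and -0.01 ± 0.80, and Pomgnt1 by -0.32 ± 0.71 (SE, n = 2 per group). Each of these standard errors was larger than the difference beside it. Without splenic replicate 1, the differences were 0.72 (Pofut1), 0.31 (B3glct), 0.13 (Pomt1), 0.58 (Pomt2) and 0.38 (Pomgnt1), all with the sign turned. Without tumor replicate 1 Pofut1 was 0.14, and without tumor replicate 2 Pomt2 was 0.79. Pofut2 kept its sign with each sample left out, between -1.66 and -1.06.

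**Figure D2:**
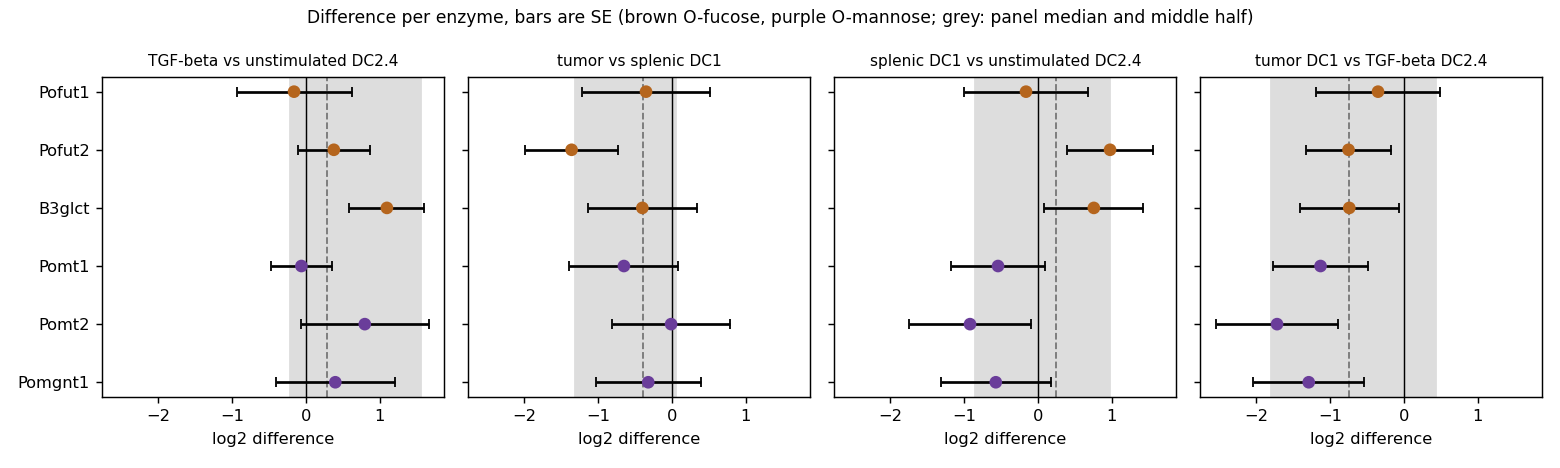
Difference in relative level of each enzyme (horizontal axes, log2 scale) in 4 comparisons, brown for O-fucose and purple for O-mannose enzymes, with bars of 1 standard error from limma. The grey band spans the middle 50% of panel genes and the dashed line their median. For TGF-beta in DC2.4 cells B3glct stands farthest from 0 at 1.10, and for tumor against splenic DC1 Pofut2 does at -1.36.

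The reference wells differed between tumor and splenic DC1 and also between the 2 splenic samples, and the DC1 differences moved with the choice of well. Well H03 (Gapdh in the manufacturer's usual layout) had, against the other 4 reference wells, a log2 level that differed by -2.46 between tumor and splenic DC1, which is less template in the tumor cells. Wells H01 (Actb) and H04 (Gusb in that layout) differed by 1.15 and 1.16 in the opposite direction. In the 2 splenic samples H02 stood at -0.03 and 2.52 against the other 4 wells, and H05 at 0.74 and -1.26. There H03 was steadier, at 0.20 and 0.34. Against H03 alone all 6 enzymes were higher in tumor DC1, with Pofut2 at 0.61 and Pomt2 at 1.96. Against H04 alone 5 of the 6, all but Pomt2, were lower and passed the limma test, with Pofut2 at -2.28. Of the 62 panel genes tested, 38 passed with that well, these 5 included. Pofut2 was lower in tumor DC1 under 10 of 11 choices, all but H03 alone. Against the mean of the other 5 enzymes its difference was -1.01 ± 0.52 (adjusted p = 0.203 by limma), and that of Pomt2 was 0.61. Which reference well is right for these cells was not tested.

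**Figure D3:**
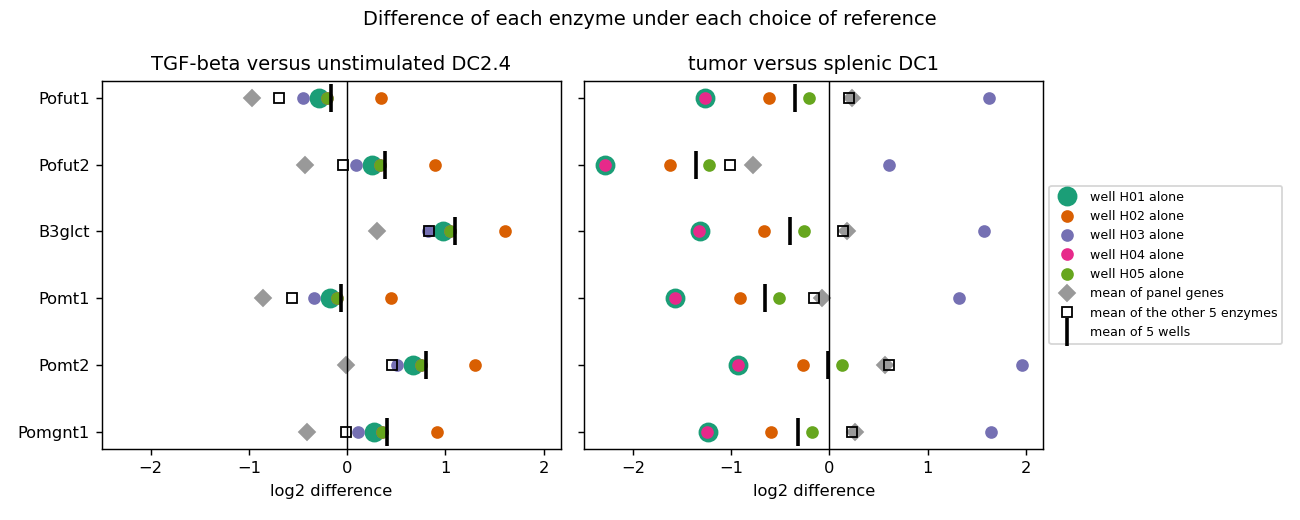
TGF-beta minus unstimulated DC2.4 and tumor minus splenic DC1 differences of the 6 enzymes (horizontal axes, log2 scale), each mark 1 choice of reference: the 5 wells alone, their mean, the panel mean and the mean of the other 5 enzymes. Marks of H01 (drawn larger), H04 and H05 partly cover each other. Pofut2 in the tumor comparison runs from -2.28 to 0.61, and B3glct with TGF-beta from 0.30 to 1.61.

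The authors' deposited table of fold changes ordered the 6 enzymes the other way round in the DC1 comparison. In the authors' deposited table the tumor over splenic ratios of Pofut2 were 1.9874, 1.9543 and 1.9553, the highest of the 6, where the files gave its difference as the lowest. Those of Pomt2 in the authors' deposited table were 0.8059, 0.7236 and 0.7651, the lowest of the 6, where the files gave the difference closest to 0. The sign itself was opposite for Pofut2, B3glct and Pomt1, and negative in both sources for Pomt2, Pomgnt1 and, by a mean that rounds to 0 in the authors' deposited table, Pofut1. For each of the 6 enzymes the mean log2 ratio in the authors' deposited table and the log2 difference from the sample files summed to between -0.40 and -0.35, so the pair were close to mirror images with a common shift. For TGF-beta the directions matched, and the authors' deposited table gave mean log2 ratios that differed from those of the files by -0.23 to -0.01. B3glct there had ratios of 2.41, 1.51 and 2.16. Which source has the direction right could not be settled from the files. If the labels of the splenic and tumor files were exchanged, each tumor against splenic difference would turn its sign with the same size and p, and the comparisons that follow are also given with that exchange.

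The tumor and TGF-beta effects were then set against each other in 1 fit on all 8 samples. This contrast called 10 of 61 genes (16.4%) and none of the 6 enzymes, with adjusted p-values from 0.214 to 0.951 by limma. All 6 estimates were negative, with a median of -0.76 against -0.62 for all genes. Pofut2 stood at -1.74 ± 0.82 and B3glct at -1.50 ± 0.94, and the others lay between -0.81 ± 1.17 (Pomt2) and -0.18 ± 1.18 (Pofut1; SE). With the DC1 labels exchanged these signs and their order did not hold. Pofut2 was then 0.98 ± 0.82, Pomt1 0.70 ± 0.90 and Pofut1 0.51 ± 1.18, while Pomt2 was -0.79 ± 1.17, B3glct -0.70 ± 0.94 and Pomgnt1 -0.08 ± 1.06, and limma called 0 of 61 genes, 2 having an unadjusted p under 0.05.

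Splenic DC1 were also compared with unstimulated DC2.4 cells, and tumor DC1 with TGF-beta-treated ones, comparisons in which line against sorted cells, tissue and culture all differ at once. Between splenic DC1 and unstimulated DC2.4 cells, 7 of 61 genes passed (11.5%, all higher in splenic DC1) and 0 of the 6 enzymes. Pofut2 was 0.98 ± 0.58 higher in splenic DC1 (adjusted p = 0.319 by limma) and the only 1 of the 6 whose samples did not overlap. Of the panel genes 31.1% were apart as higher in splenic DC1, 23.0% as lower and 54.1% in all. B3glct differed by 0.76 ± 0.67 and Pofut1 by -0.16 ± 0.84, while Pomt1 (-0.54 ± 0.64), Pomgnt1 (-0.57 ± 0.75) and Pomt2 (-0.92 ± 0.83; SE, n = 2 per group) all had negative differences. Medians were 0.76 for the O-fucose and -0.57 for the O-mannose enzymes, and 0.24 for all genes. With the DC1 labels exchanged Pofut2 was -0.38 ± 0.58 and overlapped, Pomt1 (-1.19 ± 0.64) and Pomgnt1 (-0.90 ± 0.75) were lower without overlap, and 13 of 61 genes and none of the 6 passed. Without splenic replicate 2, Pofut1 was 0.90, Pomt1 0.24 and Pomgnt1 0.12, and without unstimulated replicate 1 Pofut1 was 0.48.

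Between tumor DC1 and TGF-beta-treated DC2.4 cells, 21 of 61 genes passed (34.4%, 7 higher and 14 lower in tumor DC1) and again 0 of the 6. All but Pofut1 were lower in both tumor samples than in both treated samples, 5 of 6, where 57.4% of panel genes were apart in that direction, 23.0% in the other and 80.3% in all. The nearest tumor and treated samples were close for B3glct (-9.32 and -9.31), Pomt2 (-7.62 and -7.57) and Pofut2 (-5.91 and -5.81). Those margins were smaller than the gap between the samples of either group. The differences were -1.72 ± 0.83 (Pomt2, adjusted p = 0.129), -1.29 ± 0.75 (Pomgnt1), -1.13 ± 0.64 (Pomt1), -0.75 ± 0.58 (Pofut2), -0.74 ± 0.67 (B3glct) and -0.35 ± 0.84 (Pofut1; SE, n = 2 per group, limma). The median of the 6 was -0.94 and that of all genes -0.75. With the DC1 labels exchanged Pomt2 remained lower without overlap (-1.71 ± 0.83), Pofut2 was higher without overlap (0.61 ± 0.58), the other 4 overlapped, and 16 of 61 genes and none of the 6 passed. Pomt2 was -2.61 without TGF-beta replicate 2, and ranged from -2.61 to -0.84 over the samples left out. Against the other reference wells, H03 differed by -3.47 here between tumor DC1 and treated DC2.4 cells, and H01 by 2.30. With H01 alone as the reference all 6 enzymes were lower in tumor DC1 and passed the limma test, and with H03 alone all 6 were higher, from 1.06 (Pomt2) to 2.43 (Pofut1). Of the 61 genes tested, 41 passed with H01 alone. With H03 alone 39 passed, 3 of the 6 enzymes among them.

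The sets of 3 could also be weighed within a sample, where the reference wells cancel. The mean level of the O-fucose enzymes minus that of the O-mannose enzymes was -0.57 and -0.51 in unstimulated DC2.4 cells, -0.62 and -0.33 with TGF-beta, 0.60 and 0.74 in splenic DC1, and 0.04 and 0.55 in tumor DC1. All 4 DC1 samples lay above all 4 DC2.4 samples. The mean was 0.99 higher in DC1, 1.98-fold in favour of O-fucose enzymes, and within DC2.4 cells TGF-beta-treated (-0.48 ± 0.20) and unstimulated samples (-0.54 ± 0.04; SD, n = 2) overlapped. This measure was chosen after the values were seen and is a description with no test. How often other sets of 3 panel genes set against 3 would separate DC1 from DC2.4 was not tested. Its absolute level depends on the unknown primer efficiencies and cannot be read. If efficiencies differ between genes, differences between samples also depend on the amount of template. Mean reference Ct was 16.96 to 22.07 in the DC2.4 samples and 22.31 to 24.32 in the DC1 samples. The part of this in the balance was not tested.

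With each of the 6 left out in turn the DC1 minus DC2.4 difference stayed between 0.84 and 1.09 and the groups did not overlap, and with each sample left out it lay between 0.90 and 1.13. The margin was narrow without B3glct, where DC2.4 samples reached 0.77 and DC1 samples began at 0.88. Without Pomt1 these values were -0.61 and -0.49. The difference does not turn if the labels of splenic and tumor DC1 are exchanged, since both count as DC1. Of the 59 panel genes detected in all samples 25.4% did not overlap between the 4 DC1 and the 4 DC2.4 samples, and none of the 6 enzymes was among them. Of all 1711 pairs of those genes 32.6% had differences that did not overlap, while of 9 pairs of an O-fucose with an O-mannose enzyme only B3glct against Pomt2 did so. B3glct minus Pomt2 was -2.92, -2.17, -2.75 and -1.73 in the DC2.4 samples and -0.74, -0.99, -1.70 and -0.81 in the DC1 samples. None of the 6 pairs within a pathway separated the sources.

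**Figure D4:**
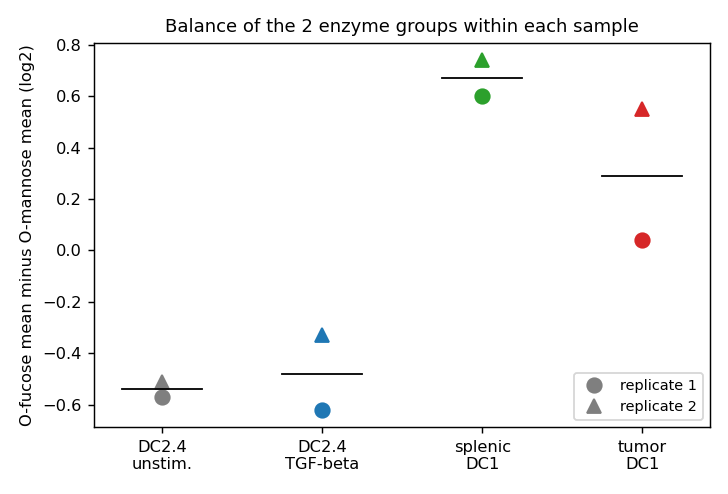
Mean level of the 3 O-fucose enzymes minus that of the 3 O-mannose enzymes (vertical axis, log2 scale) in the 2 measured samples of each group, with the group mean as a line. DC2.4 samples lie between -0.62 and -0.33 and DC1 samples between 0.04 and 0.74.

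Enzymes that work together could be set against each other in the same way. Pofut2 minus B3glct, the pair acting on thrombospondin repeats, was 4.19, 4.20, 3.44 and 3.50 in the DC2.4 samples, in the order unstimulated then TGF-beta, and 3.77, 5.05, 3.40 and 3.51 in the DC1 samples, splenic then tumor. Both unstimulated values lay above both TGF-beta values, and the second splenic sample stood apart from the other 7. Of single panel genes 39.1% were apart between unstimulated and TGF-beta-treated cells, and the share of gene pairs was not counted. For the subunits of the O-mannosyltransferase, Pomt1 minus Pomt2 was -0.66, 0.49, -1.71 and -0.17 in the DC2.4 samples and 0.49, 0.10, -1.09 and 0.41 in the DC1 samples, so it was lower in replicate 1 than in replicate 2 in all groups but splenic DC1.

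Across the 8 samples, profiles were compared by Pearson's r over the 59 panel genes detected in all of them, as a description. All points share the reference wells and the sample's depth, 5 of the 6 enzymes share the order of replicates given above, and the median r of an enzyme with the other genes was 0.30 to 0.53. Pomt2 and Pomgnt1 were the closest pair among the 6 (r = 0.91), followed by Pomt1 with Pomgnt1 (0.79) and Pofut1 with Pomgnt1 (0.77). Both Pomt2 and Pomgnt1 were also close to St3gal2, which caps galactose with sialic acid (r = 0.93 and 0.98). St3gal2 stood at -6.89, -8.11, -6.42 and -7.97 in the DC2.4 samples and at -7.44, -9.07, -8.06 and -8.59 in the DC1 samples, lower in replicate 2 of each group, like 5 of the 6 enzymes. Pomgnt1 was next closest to Mgat4b (0.93), which adds a branch to N-glycans.

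Pomt1 was closest to Galnt2 (0.93), which starts mucin-type O-glycans, and Prkcsh (0.91), a subunit of the glucosidase that trims N-glycans in the endoplasmic reticulum. Pofut1 was closest to Nagpa (0.84) and Mogs (0.82), which act in mannose 6-phosphate tagging and in the first step of N-glycan trimming. The enzymes of thrombospondin repeats had weaker partners. Pofut2 was closest to Gnptab (0.72) and B4galt5 (0.70), and B3glct to B3gnt8 (0.78) and Galnt1 (0.75). Among themselves Pofut2 and B3glct had r = 0.59, Pomt1 and Pomt2 0.67, and Pofut1 and Pofut2 0.27.

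Other genes of these glycan types were nearly absent from the panel. Of 14 further symbols listed for O-fucose, O-glucose and Fringe biology it held 1, Fut11, and of 19 symbols listed for the O-mannose pathway 1, Mgat5b. Fut11, reported as an O-fucosyltransferase of EMI domains, stood at -8.37, -9.58, -8.62 and -9.04 in the DC2.4 samples and at -5.27, -6.55, -6.28 and -7.16 in the DC1 samples, with all DC1 samples above all DC2.4 samples. Of 59 panel genes detected in all samples, 25.4% were apart between DC1 and DC2.4 in 1 direction or the other. Fut11 was 3.06 ± 0.69 higher in splenic DC1 than in unstimulated DC2.4 cells (8.37-fold, adjusted p = 0.013) and 2.11 ± 0.69 higher in tumor DC1 than in TGF-beta-treated cells (4.31-fold, adjusted p = 0.037; limma, SE, n = 2 per group). Of the 61 genes tested, 11.5% passed in the first of these comparisons and 34.4% in the second. Fut11 was higher in DC1 under all 11 choices of reference in both comparisons, passing in 9 and in 7 of them. With each sample left out, its difference lay between 2.43 and 3.70 in the first comparison, and it did not pass without unstimulated replicate 2 or without splenic replicate 1. In the second comparison it lay between 1.67 and 2.55 and passed in 0 of 4 such fits. With the DC1 labels exchanged it was 2.25 ± 0.69 (adjusted p = 0.044) and 2.92 ± 0.69 (adjusted p = 0.011; limma). With that exchange 21.3% and 26.2% of the 61 genes passed. Fut11 did not pass for TGF-beta (0.15 ± 0.61) or for tumor against splenic DC1 (-0.81 ± 0.73).

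Mgat5b, which branches O-mannose glycans, was under a Ct of 35 in 3 of the 8 samples, all DC2.4. Its Ct was 35.38 and 33.45 in unstimulated DC2.4 cells, 34.92 and 28.28 with TGF-beta, and 35.08 and 38.64 in replicate 1 of splenic and tumor DC1, with a blank well in replicate 2 of both. It was left out of the tests, because the computed file broke the relation to the other 2 in DC2.4 cells and because it was under a Ct of 35 in 0 of the 4 DC1 samples.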

How the data were processed

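The 12 sample files deposited by the authors hold a Ct per well of an array plate, with baseline cycles 3 to 15 and a threshold of 0.2 per the file headers. The deposited series matrix gives Ct minus the beta-actin Ct, a log2 scale, and the authors' deposited fold table gives ratios. Wells were named through the series matrix. The third file of each group matched a constant times the mean of the other 2 within 0.002 cycles and was not used in the tests. The third splenic and second tumor files were moved by 1 well. Left out were 11 genes in the TGF-beta and 17 in the DC1 comparison, none of the 6 enzymes. The 11 broke the relation of the third file to the other 2. The 17 broke it or lay in a run of wells of the first splenic file that was checked for suspect values. Suspect values were whole numbers, values found in another well of that file, or values equal to one in the second splenic file. Splenic replicate 1 was kept for its other genes. The 59 panel genes detected in all 8 samples, used for descriptions, were chosen by Ct alone, without these exclusions. Ct over 35 or blank was set to 35. Genes needed a Ct under 35 in 2 or more of the compared samples. Tests were two-sided and used lmFit and eBayes of limma 3.58.1 under R 4.3.3, and p-values were adjusted by Benjamini-Hochberg across every gene tested. The code was tested on simulated data. The enzymes, lists and tests were chosen with earlier results of these data known. All 6 enzymes are named, with the 2 genes most like each. Promoter windows and coordinates are RefSeq's.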

Additional observations from a re-analysis of the deposited data

Results flagged for a closer look

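The genomic DNA control well (H06 in the manufacturer's usual layout) gave a Ct of 34.18 in tumor DC1 replicate 1, a signal in a well outside the comparisons. It was blank in both splenic samples, in tumor DC1 replicate 2 and in replicate 2 of both DC2.4 groups. In replicate 1 its Ct was 44.01 in unstimulated and 40.94 in TGF-beta-treated DC2.4 cells. In tumor DC1 replicate 1 B3glct, the enzyme with the latest Ct, stood at 33.22 and Pofut2 at 29.82. The part of genomic DNA in these values was not tested.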

How the results depend on the processing

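No paired analysis was possible because the labels number the samples 1 to 12 and give the groups no shared replicate numbers. With 2 samples per group, leaving out 1 sample turned the sign of many differences, and so did the choice of reference. The exchange of labels below was added after the data were seen.

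With well H02 alone the TGF-beta differences were 0.34 (Pofut1) and 0.45 (Pomt1), and 1 gene passed for tumor against splenic DC1, 2 for splenic DC1 against unstimulated and 13 for tumor DC1 against TGF-beta DC2.4 cells. Without H03, Pomt1 was 0.02 with TGF-beta, 11 genes passed for tumor against splenic DC1, and 3 enzymes passed for tumor DC1 against TGF-beta DC2.4 cells.

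With the mean of panel genes as reference, TGF-beta differences were -0.43 (Pofut2), -0.01 (Pomt2) and -0.41 (Pomgnt1). Tumor against splenic differences were 0.23 (Pofut1), 0.18 (B3glct), 0.57 (Pomt2) and 0.26 (Pomgnt1), and the contrast of both effects gave 0.97 (Pofut1), 0.56 (Pomt1), 0.34 (Pomt2) and 0.43 (Pomgnt1). For splenic DC1 against unstimulated cells 11 genes passed, and tumor DC1 against TGF-beta DC2.4 cells gave 0.55 (Pofut1), 0.15 (Pofut2) and 0.16 (B3glct). With the mean of the other enzymes as reference the same comparisons gave, for TGF-beta, -0.04 (Pofut2) and -0.01 (Pomgnt1). For tumor against splenic DC1 they gave 0.20 (Pofut1), 0.14 (B3glct), 0.61 (Pomt2) and 0.23 (Pomgnt1). The contrast of effects gave 0.89 (Pofut1), 0.40 (Pomt1), 0.14 (Pomt2) and 0.24 (Pomgnt1). Tumor DC1 against TGF-beta DC2.4 cells gave 0.78 (Pofut1), 0.29 (Pofut2) and 0.31 (B3glct).

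With H01 alone 11 genes passed for tumor against splenic DC1, and Pofut2 (-0.06) and B3glct (-0.28) turned for splenic DC1 against unstimulated cells. For tumor DC1 against TGF-beta DC2.4 cells 41 genes and 6 enzymes passed. With H03 alone 16 genes passed for tumor against splenic DC1, with Pofut1 at 1.62, Pofut2 0.61, B3glct 1.57, Pomt1 1.32, Pomt2 1.96 and Pomgnt1 1.65. The contrast of effects was then 2.07 (Pofut1), 0.52 (Pofut2), 0.75 (B3glct), 1.67 (Pomt1), 1.45 (Pomt2) and 1.54 (Pomgnt1). Pofut1 was 0.36 for splenic DC1 against unstimulated cells. For tumor DC1 against TGF-beta DC2.4 cells 39 genes and 3 enzymes passed, at 2.43 (Pofut1), 2.03 (Pofut2), 2.04 (B3glct), 1.65 (Pomt1), 1.06 (Pomt2) and 1.49 (Pomgnt1).

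With H04 alone 38 genes and 5 enzymes passed for tumor against splenic DC1, and 18 genes and 2 enzymes for the contrast of effects, B3glct at -2.38 and Pofut2 at -2.61. For splenic DC1 against unstimulated cells 13 genes passed and Pofut1 was 0.10, and for tumor DC1 against TGF-beta DC2.4 cells 37 genes and 5 enzymes passed. With H05 alone 15 genes passed for tumor against splenic DC1, with Pomt2 at 0.13, and the contrast of effects gave 0.00 for Pofut1. For splenic DC1 against unstimulated cells 15 genes passed and Pofut1 was 0.28, and tumor DC1 against TGF-beta DC2.4 cells gave 0.29 for Pofut1. Without H01, Pomt2 was 0.22 for tumor against splenic DC1, and Pofut1 was 0.02 (contrast of effects), 0.10 (splenic against unstimulated) and 0.11 (tumor DC1 against TGF-beta DC2.4 cells). Without H02, 12 genes passed and Pomt2 was 0.06 for tumor against splenic DC1, Pofut1 was 0.01 in the contrast of effects, and 13 genes passed for splenic DC1 against unstimulated cells. Without H04, Pomt2 was 0.22 for tumor against splenic DC1 and Pofut1 0.04 in the contrast of effects. Without H05, 9 genes passed for tumor against splenic DC1.

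With late Ct values left out, 5 genes passed for TGF-beta, and with genes under Ct 35 in all samples 5 passed for TGF-beta and 3 for tumor against splenic DC1. A fit on all 8 samples called 6 for TGF-beta, and a robust prior with a trend called 7 for TGF-beta and 9 for tumor against splenic DC1. With all 3 deposited files, including the computed one, which carries no spread of its own, 13 genes passed for TGF-beta and 22 genes and 1 enzyme (Pofut2, -1.37) for tumor against splenic DC1. The contrast of effects called 19 genes and 1 enzyme (Pofut2, -1.70), splenic DC1 against unstimulated cells 27 genes, and tumor DC1 against TGF-beta DC2.4 cells 45 genes and 5 enzymes. With series matrix values 12 genes passed for TGF-beta, 0 for tumor against splenic DC1 and 3 for the contrast of effects. For splenic DC1 against unstimulated cells 0 passed and Pofut2 was -0.44. For tumor DC1 against TGF-beta DC2.4 cells 3 enzymes passed with series matrix values, and 34.4% of panel genes passed there with the main settings. The cause of each of these shifts was not tested.

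With the labels of splenic and tumor DC1 exchanged, tumor against splenic differences were 0.35 (Pofut1), 1.36 (Pofut2), 0.40 (B3glct), 0.65 (Pomt1), 0.01 (Pomt2) and 0.32 (Pomgnt1). The contrast of effects called 0 genes by limma (2 at an unadjusted p under 0.05), with Pofut1 at 0.51, Pofut2 0.98 and Pomt1 0.70. Splenic DC1 against unstimulated cells called 13 genes, with Pofut2 at -0.38, and tumor DC1 against TGF-beta DC2.4 cells gave 0.00 (Pofut1) and 0.61 (Pofut2).

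With each sample left out in turn, TGF-beta differences ran from -0.81 to 0.48 (Pofut1), 0.03 to 0.73 (Pofut2), 0.72 to 1.48 (B3glct), -0.17 to 0.06 (Pomt1), -0.09 to 1.68 (Pomt2) and -0.41 to 1.20 (Pomgnt1), with 0 to 15 genes called. Tumor against splenic differences ran from -1.41 to 0.72 (Pofut1), -1.66 to -1.06 (Pofut2), -1.11 to 0.31 (B3glct), -1.43 to 0.13 (Pomt1), -0.80 to 0.79 (Pomt2) and -1.02 to 0.38 (Pomgnt1), with 3 genes (without either tumor sample) to 16 (without splenic replicate 2) called. The contrast of effects ran from -1.25 to 0.88 (Pofut1), -2.08 to -1.39 (Pofut2), -2.22 to -0.79 (B3glct), -1.37 to 0.19 (Pomt1), -1.69 to 0.08 (Pomt2) and -1.52 to 0.08 (Pomgnt1), with 9 to 12 genes called. Splenic DC1 against unstimulated cells ran from -1.23 to 0.90 (Pofut1), 0.78 to 1.18 (Pofut2), 0.05 to 1.48 (B3glct), -1.32 to 0.24 (Pomt1), -1.50 to -0.33 (Pomt2) and -1.27 to 0.12 (Pomgnt1), with 3 to 7 genes called. Tumor DC1 against TGF-beta DC2.4 cells ran from -0.99 to 0.30 (Pofut1), -1.10 to -0.40 (Pofut2), -1.12 to -0.36 (B3glct), -1.24 to -1.01 (Pomt1), -2.61 to -0.84 (Pomt2) and -2.10 to -0.49 (Pomgnt1), with 15 to 22 genes and 0 to 1 enzymes called.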
